A study of Homo sapiens with 11 samples.

Results

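The EGFR-RAS-ERK pathway carries growth factor signals from the cell surface to the nucleus. Ligand-bound EGFR, a receptor tyrosine kinase, loads RAS with GTP through adaptors and exchange factors, and RAS-GTP then recruits RAF kinases such as BRAF, which start the MEK and ERK kinase steps. NF1 returns RAS to its GDP form, and ERK induces its own brakes: the DUSP phosphatases, which remove phosphates from ERK and related kinases, and the Sprouty proteins, which act between the receptor and RAS or RAF. The transcripts of DUSP6, SPRY2 and SPRY4 are therefore widely read as markers of ERK output, and the pathway is known for driving growth and migration in basal-like breast cancer cells.

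Here 9 genes of this pathway were followed by name, out of 23167 identifiers in each count table: the drivers EGFR and BRAF, the RAS brake NF1, and the feedback genes DUSP1, DUSP4, DUSP5, DUSP6, SPRY2 and SPRY4. All 9 had counts in every library and passed the filter on low counts, which left 10943 genes to test. MDA-MB-231 is an established human cell line from a triple-negative breast cancer. The study asked which genes depend on macroH2A1.1 (mH2A1.1), a splice isoform of the histone variant that MACROH2A1 encodes. WT cells received the transfection reagent INTERFERin alone, and mH2A1.1 KD cells received INTERFERin with siRNA against mH2A1.1 at 11 nM. Both were collected on day 3, with 2 RNA-seq libraries per condition, and mH2A1.1 and total mH2A1 were each mapped by ChIP-seq in 1 library of cells given as WT. The control therefore held no non-targeting siRNA, and the siRNA used for the RNA-seq is not given in the sources used here. Nothing states that the replicates were separate cultures, so p-values measure the spread between these libraries, which may be technical.

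The libraries held between 2309549 and 9794674 counts on genes, and the shallowest, KD replicate 2, stood apart. It had 30 counts on chromosome 21 and none on chromosomes 22 and X, so genes of these chromosomes were left out of the test. It also differed in base composition: with genes split into 5 equal bins of exon GC content, those of the lowest bin lay at a median of -0.53 (log2) against the mean of the 4 libraries and those of the highest bin at 0.52, whereas the other libraries lay between 0.01 and 0.32 and between -0.28 and -0.05. MACROH2A1, the targeted gene, had 385 and 394 TMM CPM (counts scaled to the library size, with edgeR's TMM factors) in WT and 274 and 301 in KD. Its log2 fold change was -0.44 (edgeR, adjusted p = 0.20), and its gene count pools the targeted isoform with mH2A1.2, so it checks the labels in part only. ESR1 and PGR, the hormone receptors that triple-negative cells lack, had 0 counts in every library, while VIM, KRT8 and KRT18 had between 1710 and 22006. CDH1, another epithelial marker, had between 2 and 22. Of 3 fibroblast markers DCN was at 0 and PDGFRA at 1 count or fewer in each library, but COL1A1 had between 66 and 97. Of the leukocyte markers CD3E had 1 count or fewer and CD14 between 3 and 31, while PTPRC was not analysed here.

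The DNA before the start of 4 members shows how differently these genes begin. EGFR and NF1 stand for the drivers and brakes of RAS, DUSP1 for the immediate-early feedback genes, and DUSP6 for the ERK-specific feedback genes. The sequences are from RefSeq (GRCh38.p14), 5′ to 3′ on the strand of the gene, and each ends at the base before the first annotated exon. Capitals mark cAMP response elements (CRE, TGACGTCA) and TATA boxes (TATAAA), which were sought on both strands, as were ETS sites (CCGGAAGT), AP-1 sites (TGANTCA), E-boxes (CACGTG) and GC boxes (GGGCGG).
EGFR, chr7:55018767-55019016, plus strand: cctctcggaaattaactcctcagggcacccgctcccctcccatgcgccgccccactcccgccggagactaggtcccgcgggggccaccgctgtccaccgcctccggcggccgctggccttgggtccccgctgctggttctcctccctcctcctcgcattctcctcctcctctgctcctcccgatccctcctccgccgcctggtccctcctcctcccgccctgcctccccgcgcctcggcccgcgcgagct
NF1, chr17:31094727-31094926, plus strand: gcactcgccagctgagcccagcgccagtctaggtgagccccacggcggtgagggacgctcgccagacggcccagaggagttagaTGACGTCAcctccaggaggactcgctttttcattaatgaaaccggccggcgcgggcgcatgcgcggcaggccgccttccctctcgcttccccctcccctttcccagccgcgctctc
DUSP1, chr5:172771196-172771445, minus strand: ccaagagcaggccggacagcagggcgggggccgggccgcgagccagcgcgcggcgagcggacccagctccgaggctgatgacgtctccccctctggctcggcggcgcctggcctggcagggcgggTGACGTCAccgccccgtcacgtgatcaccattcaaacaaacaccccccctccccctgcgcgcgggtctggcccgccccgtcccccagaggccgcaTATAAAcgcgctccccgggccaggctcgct
DUSP6, chr12:89352502-89352751, minus strand: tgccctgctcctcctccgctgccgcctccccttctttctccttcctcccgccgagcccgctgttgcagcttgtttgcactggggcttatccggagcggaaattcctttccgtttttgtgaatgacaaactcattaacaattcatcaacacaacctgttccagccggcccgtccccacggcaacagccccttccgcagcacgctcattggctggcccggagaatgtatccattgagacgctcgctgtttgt

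Over windows of 250 bases before to 50 bases after each RefSeq start, DUSP1 held a CRE, a TATA box, an E-box that overlapped no CRE, and 4 GC boxes. NF1 held a CRE and an ETS site, DUSP6 held none of the 6 motifs, and EGFR held 3 GC boxes at its main start. A CRE was present in 1.85% of the 35116 promoters of this table, an ETS site in 4.14%, a TATA box in 11.5%, an E-box in 7.26% and a GC box in 45.0%. The window of EGFR was 75.3% GC, that of DUSP1 73.3%, that of NF1 67.0% and that of DUSP6 58.3%, beside a median of 58.7% over all promoters. The whole windows of EGFR, NF1 and DUSP1 lay inside an mH2A1.1 peak, and that of DUSP6 lay outside.

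Per kilobase of exon, the feedback phosphatases were the most abundant members in WT cells and BRAF and NF1 the least. DUSP5 reached 83.0 ± 3.54 RPKM (TMM CPM per kilobase of annotated exon, mean ± SD, n = 2), DUSP6 81.6 ± 0.65, DUSP1 76.2 ± 0.24 and DUSP4 58.1 ± 0.98. These levels lie between the 95.2 and the 97.2 percentile of the tested genes. EGFR followed at 41.5 ± 0.14 RPKM, then SPRY4 at 30.2 ± 0.18 and SPRY2 at 27.7 ± 1.58. BRAF, at 3.83 ± 0.083 RPKM, and NF1, at 2.77 ± 0.30, were at the 33.6 and 26.0 percentiles. In this order the ranges of DUSP5 and DUSP6 overlapped between the WT libraries, and no other pair of neighbours did. The lengths are summed over all annotated exons, up to 41150 bp for NF1, which lowers the RPKM of genes with many annotated transcripts.

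No member was called changed in the counts as deposited. With thresholds of 0.1 on the adjusted p and of 1.5 on the fold change, edgeR's quasi-likelihood test called 0 of 9 members, as it called 0.0% of all 10943 genes in either direction. At an unadjusted p under 0.05 there were 2541 genes, 1 of them a member, and DESeq2 called 878 genes on the same counts but no member, with 5.78% of its 7739 genes called lower. The fitted log2 fold change was below 0 in 7 members and above 0 in 2, with a median of -0.28 beside 0.01 over all genes. In 7 members both KD libraries lay below both WT libraries, which 32.4% of all genes showed, and in 1 both lay above, which 32.5% showed. In bulk RNA, fewer cells that express a gene and less RNA per cell cannot be told apart.

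**Figure D1:**
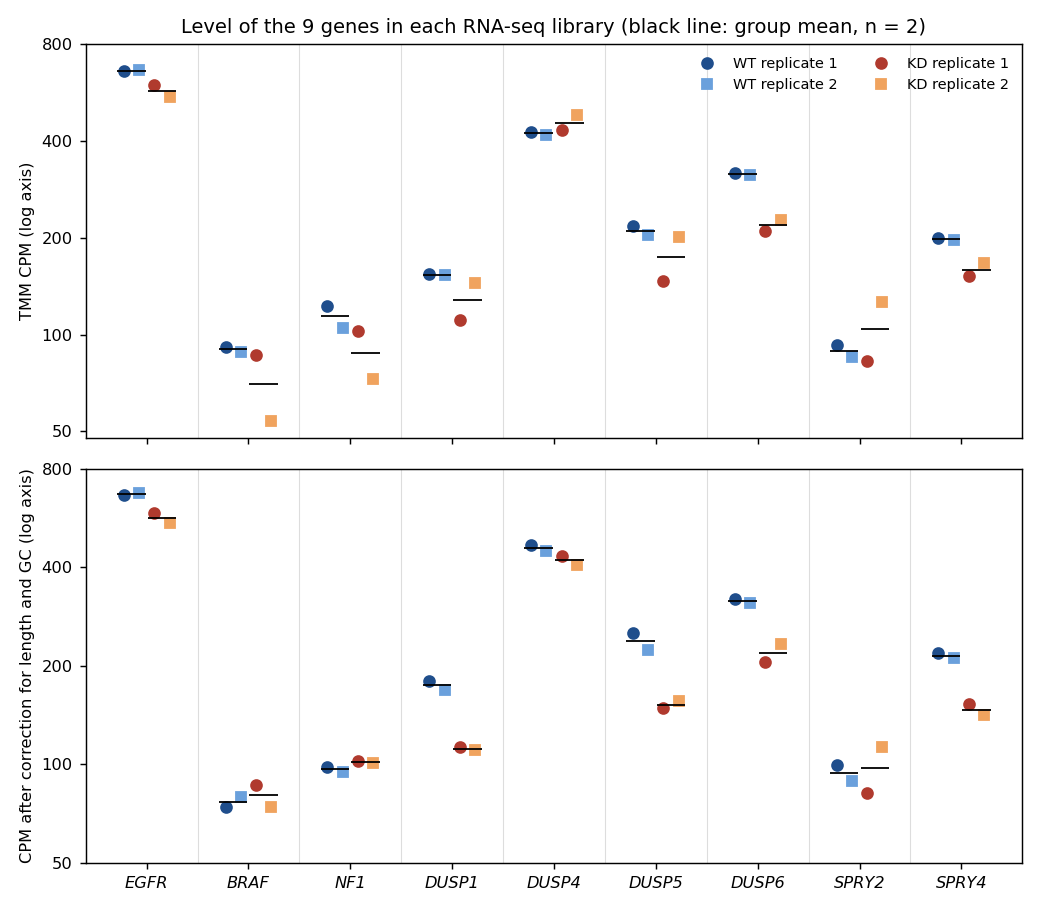
The level of each gene in each of the 4 RNA-seq libraries in CPM on a log axis, as TMM CPM in the upper panel and after a correction for exon length and GC content in the lower, with the group mean as a black line. In the lower panel the KD libraries of DUSP1, DUSP5, DUSP6 and SPRY4 sit together below the WT libraries, and those of BRAF and NF1 are no longer below them.

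These fold changes moved with the GC content of exons and with KD replicate 2. Over all genes the median log2 fold change rose from -0.47 in the lowest bin of exon GC content to 0.47 in the highest, and from -0.25 to 0.19 when KD replicate 2 was left out. BRAF and NF1, with 38.1% and 36.4% GC in their exons, are in the lowest bin, EGFR and DUSP6 in the middle one, and DUSP1, DUSP4, DUSP5, SPRY2 and SPRY4 in the next, whose median was 0.29. The trends with exon length and GC content were then removed from each library. By construction this levels the bins, and the medians of all 5 lay between 0.00 and 0.02. A difference between WT and KD cells that follows exon length or GC content would be removed as well. The same edgeR test then called 239 genes higher and 344 lower, which is 2.18% and 3.14% of those tested. Of the 9 members 2 were called lower, DUSP1 and DUSP5, and none higher. Passing the adjusted p alone, at any fold, were 4 members, all lower and all feedback genes, beside 5.92% of all genes. For DESeq2 the trends were fitted over every gene with a count on the chromosomes kept, not only over the genes tested in edgeR. The median over all genes was 0.07 in that fit. It put the same 4 members, DUSP1, DUSP5, DUSP6 and SPRY4, under the threshold, beside 3.16% of its 8322 genes, and none passed the fold.

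**Figure D2:**
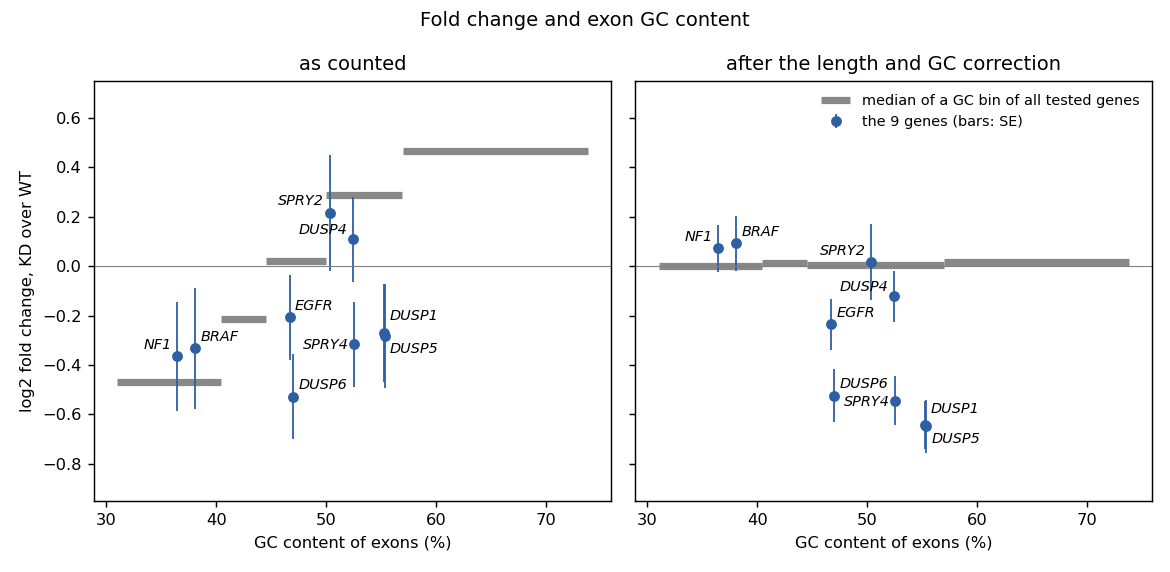
Log2 fold change of KD over WT against the GC content of exons, as counted on the left and after the correction on the right, with the 9 genes as points with SE and the median of each of 5 GC bins of all tested genes as a grey bar. The grey bars climb from -0.47 to 0.47 on the left and are level on the right, where DUSP1, DUSP4, DUSP5, DUSP6, SPRY4 and EGFR are below the bar of their bin.

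Leaving out KD replicate 2 gave the same 4 feedback genes without any correction. This fit compares 1 KD library with 2 WT libraries and assumes that the lone library varies like WT. It put DUSP1, DUSP5, DUSP6 and SPRY4 under the adjusted p, all lower, beside 14.5% of 11270 genes at any fold, and none passed the fold, which 5.31% of genes did. Without KD replicate 1 the fit rests on the shallow KD replicate 2 alone, and the values differed. BRAF and NF1 were at -0.75 and -0.66, EGFR at -0.28, and DUSP1 and DUSP5 at -0.09 and -0.08. DUSP6 and SPRY4 stayed lower, at -0.48 and -0.26, and DUSP4 and SPRY2 were higher, at 0.17 and 0.49. Neither BRAF nor NF1 was called in any fit that kept KD replicate 1.

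EGFR (ENSG00000146648, chromosome 7, 55019017 to 55211628 of GRCh38, plus strand) had the highest CPM of the members, with 659 and 662 TMM CPM in WT and 596 and 549 in KD. The KD libraries were the lower ones, without overlap. Its log2 fold change was -0.21 ± 0.17 (SE; edgeR, adjusted p = 0.45), -0.24 ± 0.10 after the correction (adjusted p = 0.20) and -0.15 ± 0.09 without KD replicate 2 (adjusted p = 0.28). Without KD replicate 1 the value was -0.28.

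BRAF (ENSG00000157764, chromosome 7, 140719327 to 140924929, minus strand), the RAF kinase that phosphorylates MEK, had 91.2 and 88.5 TMM CPM in WT and 86.7 and 54.0 in KD, so that KD replicate 1 lay close to WT and KD replicate 2 far below. After the correction the 4 libraries overlapped, at 74.3 and 79.2 in WT and 86.5 and 74.1 in KD. NDUFB2 overlaps BRAF on the other strand and had 337 and 286 counts in WT and 257 and 146 in KD. BRAF had 866 and 672 counts in WT and 458 and 114 in KD, so NDUFB2 had more in KD replicate 2. Whether reads of NDUFB2 affected the counts of BRAF was not tested. The log2 fold change of BRAF went from -0.33 ± 0.25 (edgeR, adjusted p = 0.40) to 0.09 ± 0.11 (adjusted p = 0.63).

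NF1 (ENSG00000196712, chromosome 17, 31094927 to 31382116, plus strand) showed the same turn. Its TMM CPM were 123 and 105 in WT and 103 and 72.9 in KD, and its corrected CPM were 98.3 and 95.0 in WT and 102 and 101 in KD. The log2 fold change was -0.36 ± 0.22 before the correction (edgeR, adjusted p = 0.32) and 0.07 ± 0.09 after it (adjusted p = 0.65). EVI2A and EVI2B lie inside an intron of NF1 on the other strand and had 20 to 134 and 6 to 151 counts, beside 154 to 1165 of NF1. The kit was stranded, but whether the counting used strand is given only as default parameters.

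DUSP6 (ENSG00000139318, chromosome 12, 89347235 to 89352501, minus strand), a cytoplasmic phosphatase specific for ERK, had the lowest fold change of the members in the counts as deposited. It stood at 317 and 313 TMM CPM in WT and 210 and 227 in KD, so KD was at 69.4% of WT with a wide gap between the groups. Its log2 fold change was -0.53 ± 0.17 (edgeR, unadjusted p = 0.019, adjusted p = 0.19). The value hardly moved after the correction, at -0.52 ± 0.11 (edgeR, adjusted p = 0.047), or with 1 library left out. It was -0.58 without KD replicate 2, -0.48 without KD replicate 1, -0.52 without WT replicate 1 and -0.54 without WT replicate 2. As counted, it did not pass the adjusted p in DESeq2 (adjusted p = 0.12) or in edgeR with the replicate block (adjusted p = 0.11). It did in DESeq2 with the correction (adjusted p = 0.030). On the genes of all chromosomes the tools differed, with an adjusted p of 0.36 in edgeR and of 0.00015 in DESeq2. The latter fit was added after seeing the data, and both take in chromosomes 21, 22 and X, which were left out of the other fits. The 1.5-fold limit was passed in none of these fits. SPRY4 also passed the adjusted p after the correction, in the same direction.

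DUSP5 (ENSG00000138166, chromosome 10, 110497907 to 110511533, plus strand), the nuclear counterpart that dephosphorylates and anchors ERK, was split between the KD libraries as counted. It had 217 and 204 TMM CPM in WT, 146 in KD replicate 1 and 201 in KD replicate 2. After the correction both KD libraries were low, at 149 and 156 against 253 and 223. Its log2 fold change was -0.28 ± 0.21 before (edgeR, adjusted p = 0.41) and -0.65 ± 0.11 after the correction (adjusted p = 0.028), -0.52 without KD replicate 2 (adjusted p = 5.5e-05) and -0.08 without KD replicate 1 (adjusted p = 0.62).

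DUSP1 (ENSG00000120129, chromosome 5, 172768096 to 172771195, minus strand), an immediate-early nuclear phosphatase of ERK, p38 and JNK, moved like DUSP5. It had 154 and 153 TMM CPM in WT, 111 in KD replicate 1 and 145 in KD replicate 2, and 180 and 168 against 113 and 110 after the correction. The KD libraries were the lower pair on either scale, and the gap of KD replicate 2 to WT was small before the correction. The log2 fold change was -0.27 ± 0.20 before (edgeR, adjusted p = 0.40) and -0.64 ± 0.10 after it (adjusted p = 0.022). It was -0.46 without KD replicate 2 (adjusted p = 0.00084) and -0.09 without KD replicate 1 (adjusted p = 0.57).

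DUSP4 (ENSG00000120875, chromosome 8, 29333064 to 29350684, minus strand), a nuclear phosphatase of the same class as DUSP1, had another pattern. Its TMM CPM were 428 and 418 in WT and 432 and 480 in KD, and its corrected CPM 469 and 447 in WT and 433 and 408 in KD. The groups did not overlap in either scale but changed order, with log2 fold changes of 0.11 ± 0.17 (edgeR, adjusted p = 0.70) and -0.12 ± 0.10 (adjusted p = 0.48). Without KD replicate 2 the value was 0.04 ± 0.10 (adjusted p = 0.84), so no direction can be given.

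Of the Sprouty genes, SPRY4 (ENSG00000187678, chromosome 5, 142310427 to 142326455, minus strand) had 199 and 197 TMM CPM in WT and 152 and 167 in KD, with no overlap. Its log2 fold change was -0.32 ± 0.17 as counted (edgeR, adjusted p = 0.29), -0.55 ± 0.10 after the correction (adjusted p = 0.035) and -0.38 ± 0.11 without KD replicate 2 (adjusted p = 0.0049). Without KD replicate 1 it was -0.26. SPRY4-AS1, on the other strand, had 7 to 31 counts beside 352 to 1888 of SPRY4.

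SPRY2 (ENSG00000136158, chromosome 13, 80335976 to 80341126, minus strand), the Sprouty protein that binds the ubiquitin ligase CBL, was split between the KD libraries in the opposite direction to BRAF and NF1. It had 92.5 and 85.3 TMM CPM in WT, 82.7 in KD replicate 1 and 126 in KD replicate 2. Neither fold change passed, at 0.22 ± 0.24 as counted (edgeR, adjusted p = 0.57) and 0.02 ± 0.15 after the correction (adjusted p = 0.96). The sign rested on 1 library, at -0.10 without KD replicate 2 and 0.49 without KD replicate 1.

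**Figure D3:**
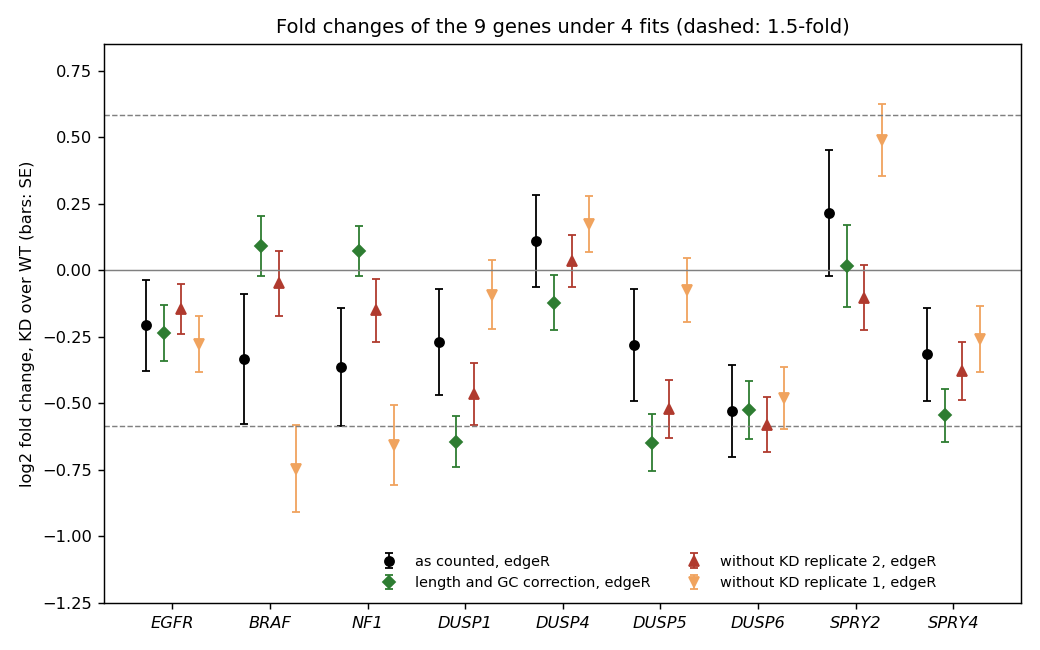
Log2 fold change of KD over WT with SE for the 9 genes in 4 edgeR fits, with dashed lines at a 1.5-fold change. DUSP6 stays between -0.58 and -0.48 in all 4, whereas BRAF and NF1 are lowest without KD replicate 1 and DUSP1 and DUSP5 are lowest after the correction.

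After the correction both KD libraries lay below both WT libraries in 6 of the 9 members, which 29.3% of genes did, and above them in 1, NF1, which 30.5% did. On this scale the 6 feedback genes had a median log2 fold change of -0.54 and EGFR, BRAF and NF1 of 0.07, beside 0.01 over all genes. This order depended on the fit: the medians were -0.28 and -0.33 as counted, -0.42 and -0.15 without KD replicate 2, and -0.08 and -0.66 without KD replicate 1. Some cell type markers moved as well. Among 5 epithelial genes KRT8 and KRT19 were called higher after the correction, at 0.71 and 0.59 (edgeR). KRT18 passed the adjusted p but not the fold, at 0.48 (adjusted p = 0.069), and EPCAM was at 0.07 (adjusted p = 0.79). CDH1 was low and overlapped between the groups as counted, at 2.3 and 2.5 TMM CPM in WT and 0.38 and 2.4 in KD. After the correction both KD libraries were below WT, at 0.37 and 2.29 beside 2.38 and 2.55 (edgeR, adjusted p = 0.22). VIM and CD44, markers of mesenchymal-like cell lines, were at 0.52 (adjusted p = 0.12) and 0.32 (adjusted p = 0.21) after the correction in edgeR. In DESeq2 with the correction VIM passed the adjusted p but not the fold, at 0.56 (adjusted p = 0.029). COL1A1, a fibroblast collagen, had 9.69 and 8.69 TMM CPM in WT and 18.4 and 33.1 in KD and was called higher after the correction at 0.95 (edgeR, adjusted p = 0.043). The other fibroblast markers were at or near 0, and the part of these changes in the values of the members was not tested.

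The rest of the pathway was read from a list of 54 genes, of which 43 were tested. As counted, edgeR called none of them, and 14 had an unadjusted p under 0.05, beside 2541 of all 10943 genes. DESeq2 gave 40 of them an adjusted p and called 5, all lower, beside 5.78% of all its genes called lower. After the correction edgeR called 6 of the 43 lower, beside 3.14% of all genes, and 0 higher, beside 2.18%. At any fold 9 passed the adjusted p, all lower, beside 5.92% of all genes, and the median was -0.12 beside 0.01 over all genes. The 6 were the ligand TGFA, the adaptor GAB1, the Sprouty gene SPRY1 and the ERK targets ETV4, EGR1 and FOS. DESeq2 with the correction called SPRY1, ETV4, EGR1 and FOS. In that fit TGFA missed the fold, at -0.56 (adjusted p = 0.045), and GAB1 missed the adjusted p, at -0.59 (adjusted p = 0.25).

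Among 6 tested ligands of EGFR, TGFA had 139 and 127 TMM CPM in WT and 99.9 and 77.6 in KD, and a corrected log2 fold change of -0.59 ± 0.13 (edgeR, adjusted p = 0.056). HBEGF passed the adjusted p but not the fold, at -0.56 ± 0.11 (adjusted p = 0.046). AREG, the other abundant ligand, had 120 and 103 TMM CPM in WT and 117 and 103 in KD. Of the other receptors, ERBB2 went from 80.1 and 80.3 TMM CPM in WT to 87.0 and 128 in KD, and after the correction to 94.3 and 91.1 against 89.3 and 93.2. ERBB3 was low, at 45 and 47 counts in WT and 33 and 13 in KD, and ERBB4 had at most 2 counts in a library.

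Of 7 adaptors and exchange factors, GAB1, a docking protein for the phosphatase SHP2, was called lower at -0.60 ± 0.17 (edgeR after the correction, adjusted p = 0.089). PTPN11, which encodes SHP2, passed the adjusted p at -0.54 ± 0.11 (adjusted p = 0.041). GRB2, SHC1, SOS1, SOS2 and CBL lay between -0.15 and 0.13. NRAS was at -0.57 as counted and -0.03 after the correction. In the kinase steps no gene passed: MAP2K1 was at -0.28, MAP2K2 at 0.23 and MAPK3 at -0.12. ARAF lies on chromosome X, with 669 to 953 counts in 3 libraries and 0 in KD replicate 2, and was not tested. HRAS was not analysed here.

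The 2 other tested phosphatases, DUSP7 and DUSP10, lay at 0.19 and 0.20 after the correction and did not pass (adjusted p = 0.24 and 0.57, edgeR). SPRY1 was called lower at -0.77 ± 0.20 (edgeR, adjusted p = 0.070), and SPRED3 passed the adjusted p at -0.53 (adjusted p = 0.087), whereas SPRED1 and SPRED2 lay at -0.03 and -0.06. Among 11 tested ERK targets, the ETS factor gene ETV4 had 58.5 and 63.7 TMM CPM in WT and 35.6 and 34.1 in KD, and a corrected log2 fold change of -1.18 ± 0.17 (edgeR, adjusted p = 0.021). Its relatives ETV5 and ETV1 were at -0.32 and 0.00. FOS, an immediate-early gene, had 180 and 184 TMM CPM in WT and 103 and 145 in KD and was at -0.87 ± 0.11 (adjusted p = 0.014). EGR1, another immediate-early gene, was called lower at -0.75 ± 0.18 (adjusted p = 0.062), but had 48.8 TMM CPM in KD replicate 2 beside 47.1 and 44.4 in WT, and its sign turned to 0.08 as counted without KD replicate 1. CCND1, FOSL1 and MYC did not pass, at -0.29, -0.13 and 0.02.

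**Figure D4:**
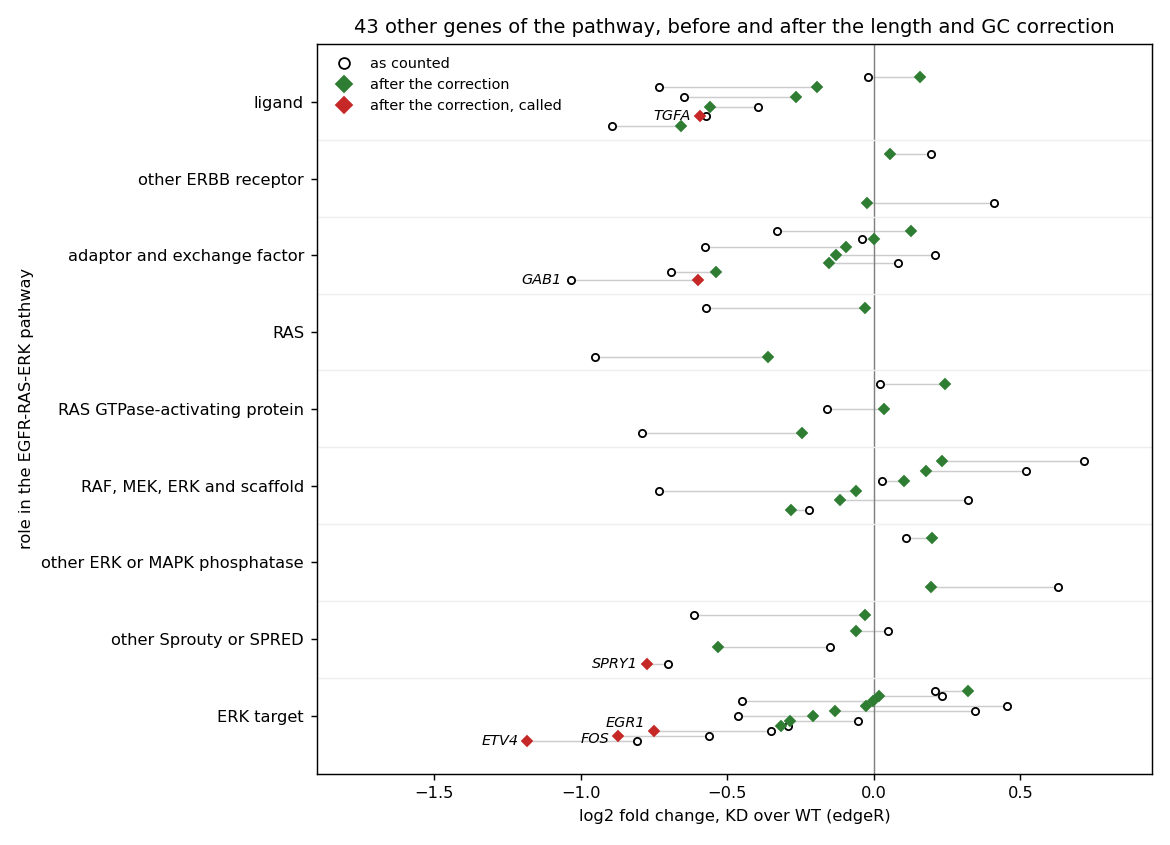
Log2 fold change of KD over WT for the 43 tested pathway genes by role, as counted (open circles) and after the length and GC correction (diamonds), with genes called after the correction in red. The 6 called genes are all lower, 3 of them among the ERK targets.

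As a description, the genes whose 4 TMM CPM values followed DUSP6 most closely, by Euclidean distance of centred log2 values over 4 libraries among 9075 genes, were VHL, CCDC34 and PSPH, at distances of 0.031, 0.031 and 0.050. For EGFR they were LPAR1, IFIT3 and CDC16, at 0.011, 0.018 and 0.022.

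In WT cells an mH2A1.1 peak covered the start of 6 of the 9 genes, EGFR, NF1, DUSP1, DUSP4, DUSP5 and SPRY4, beside 46.9% of the tested genes. The rule was an overlap with 500 bp on either side of the start in GENCODE release 44. There is 1 library per antibody, all peak scores are 0 and the peaks are whole bins of 3000 bp, so heights could not be compared and a distance under 1 bin is not resolved. Peaks of total mH2A1 covered 2 of the 9 starts, EGFR and DUSP5, beside 18.4% of tested genes. The study kept mH2A1.1 peaks that overlap a total mH2A1 peak, and such peaks covered 3 starts, those of EGFR, DUSP1 and DUSP5, beside 26.2%.

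The peaks differed in extent (coordinates in GRCh38). At DUSP1 on chromosome 5 the mH2A1.1 peak ran from 172701001 to 172824000, 123 kb, and took in all 4 exons of a gene of 3.10 kb. Only 97 of the 30687 mH2A1.1 peaks, 0.316%, were at least as wide. DUSP1 itself lay in a gap of the total mH2A1 peaks, which ended 1.81 kb before its start and began again 10.2 kb beyond it. At DUSP5 on chromosome 10 the peak ran from 110454001 to 110502000, 48 kb, ended in the first intron and covered exon 1 of 4, and a total mH2A1 peak of 6 kb shared its end. At DUSP4 on chromosome 8 it ran from 29334001 to 29352000 and covered 94.7% of the gene, with the nearest total mH2A1 peak 25.3 kb from the start. At SPRY4 on chromosome 5 it ran from 142317001 to 142329000, over exon 1 of 2 and 59.0% of the gene.

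At NF1 on chromosome 17 a peak of 9 kb from 31089001 to 31098000 covered exon 1 of 58, and another peak of 3 kb lay in intron 8, so 2.11% of the gene was covered. EGFR on chromosome 7 had the most peaks within a gene, 7 in 193 kb. The first, from 55017001 to 55020000, covered the start and exon 1 of 28 inside a total mH2A1 peak of 21 kb, and none of the other 6 touched a total mH2A1 peak. Of these 6, 4 were in intron 1, 1 was in intron 20 and 1 took in exons 16 and 17. In all, 13.0% of EGFR was covered.

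No mH2A1.1 peak overlapped the start or body of BRAF, DUSP6 or SPRY2. The nearest to DUSP6 ended 2.5 kb before its start and the nearest to SPRY2 4.88 kb before, both of 3 kb, and the nearest to BRAF was 87.1 kb away. Within the gene, 6 of 9 members held an mH2A1.1 peak, beside 72.3% of tested genes, and 2 held a total mH2A1 peak, beside 42.3%. Both shares depend on gene length, which ran from 3.10 kb for DUSP1 to 287 kb for NF1.

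**Figure D5:**
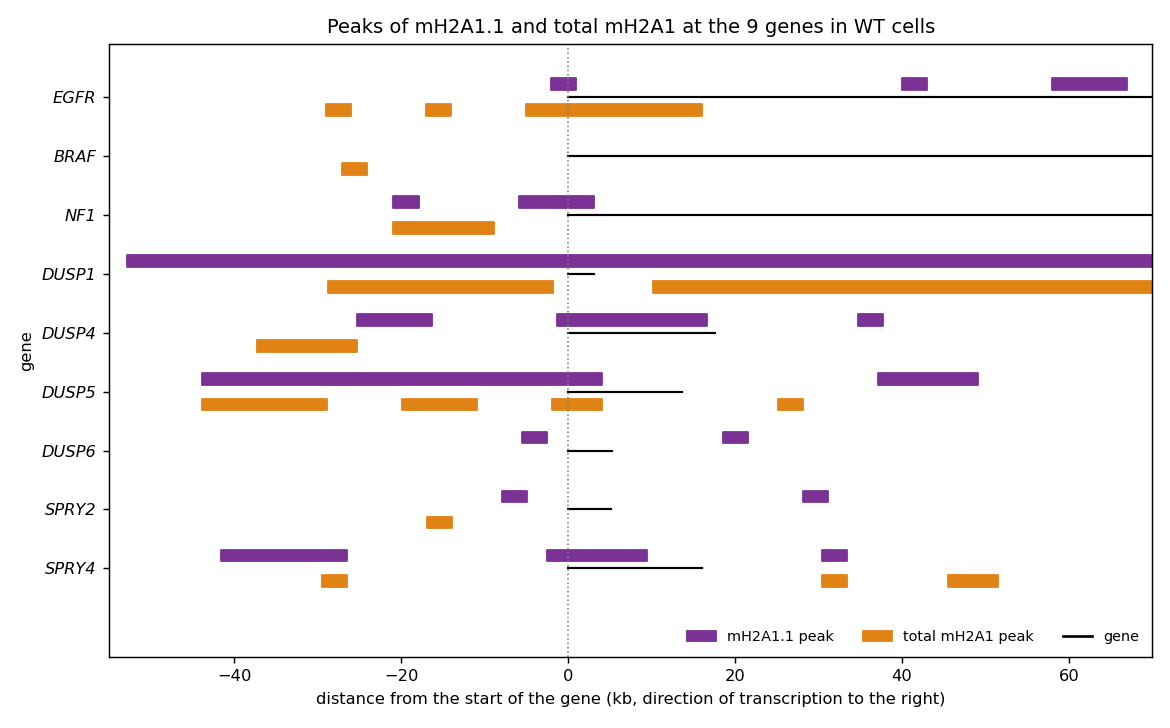
Peaks of mH2A1.1 (purple) and total mH2A1 (orange) by distance in kb from the start of each gene, with transcription to the right, the gene as a black line and everything beyond 55 kb before or 70 kb after the start cut off. DUSP1 lies inside 1 broad purple bar, DUSP4, DUSP5, NF1, SPRY4 and EGFR have a purple bar over the start, and DUSP6 and SPRY2 have one beside it.

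Set beside the RNA values, genes with and without a peak over the start were found on both sides of the threshold. Of the 4 genes that passed the adjusted p after the correction, DUSP1, DUSP5 and SPRY4 had an mH2A1.1 peak over the start. DUSP6 had none, but the nearest ended 2.5 kb before its start, a distance under 1 bin that is not resolved. Of the other 5, EGFR, NF1 and DUSP4 had one, with corrected log2 fold changes of -0.24, 0.07 and -0.12, and BRAF and SPRY2 had none. Among the mH2A1.1 peaks that overlap a total mH2A1 peak, which the study kept, only those at EGFR, DUSP1 and DUSP5 covered the start of a member. No ChIP-seq of KD cells was analysed here.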

How the data were processed

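Read counts of the 4 RNA-seq libraries (2 WT, 2 mH2A1.1 KD) and the peak lists of 1 mH2A1.1 and 1 total mH2A1 ChIP-seq library were used. The input and promoter capture HiC samples were not analysed here. The deposited RNA-seq values are unnormalized counts per gene: the authors aligned reads to GRCh38 with STAR 2.5.1, dropped reads of low mapping quality and duplicates, and ran HTSeq with default parameters. Peaks were deposited as positions with a score of 0, from the authors' normR calls against input. Of 23167 identifiers, 23061 were matched to GENCODE release 44.

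Conditions were taken from the sample titles. Genes on chromosomes covered in all 4 libraries entered edgeR 4.0.16 (R 4.3.3), in a quasi-likelihood fit on condition with TMM factors and filterByExpr. Benjamini-Hochberg adjustment ran over all tested genes, and a call combined an adjusted p below 0.1 with a 1.5-fold change. DESeq2 1.42.0 was the other tool, and its NA values stayed NA, which left 7739 genes. The correction removed lowess trends (span 0.3) of each library's log2 CPM with exon length and GC content, and entered both tools as offsets. The trends were fitted over the filtered genes for edgeR and over every gene with a count for DESeq2. Standard errors of edgeR were derived from the F statistic, and simulated counts with known changes were used to test the script. Library totals of 2309549 to 9794674 counts set the precision. RPKM values used the TMM library sizes. Alternatives were other filters and normalizations, the replicate block and leaving out each library. The members, the pathway and marker lists and the alternatives were chosen with earlier results of these data known. By rule the text names all 9 members, any gene of the lists, MACROH2A1, and the 3 genes nearest in profile to EGFR and to DUSP6. NDUFB2, EVI2A, EVI2B and SPRY4-AS1 are named outside this rule, because they overlap members. Some genes of the pathway list are counted in the totals but not reported here.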

Additional observations from a re-analysis of the deposited data

How the results depend on the processing

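With 2 libraries per condition, 1 of them shallow and lacking chromosomes, the number of called genes depended on the fit. edgeR called 0 genes in the reported fit, with DESeq2 size factors and with all chromosomes included. It called 583 with the length and GC correction and 2143 with no filter on low counts, and DESeq2 called 878, 486 with the correction and 945 on all genes, a fit added after seeing the data. Leaving out 1 library at a time gave between 2 called genes (without WT replicate 1) and 4735 (without KD replicate 1), with 17 without WT replicate 2 and 908 without KD replicate 2. The cause was not tested.

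Among the members 2 were called after the correction in edgeR, beside 583 of 10943 genes, and the number moved with the library left out. Pathway genes called numbered 5 with DESeq2, 15 with no filter, 6 and 4 with the correction in edgeR and DESeq2, 5 with DESeq2 on all genes, and between 0 and 20 when 1 library was left out. The sign turned in BRAF (0.092 in edgeR and 0.080 in DESeq2 with the correction), NF1 (0.073 and 0.084) and DUSP4 (-0.12 and -0.081). With 1 library left out it turned in SPRY2, which lay between -0.10 (without KD replicate 2) and 0.49, and in EGR1, between -0.84 and 0.081 (without KD replicate 1).

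The replicate numbers are shared but not said to mark a pair, and the deviations of the libraries numbered 1 correlated at 0.24 over 10943 genes. With the replicate block 2200 genes, 0 members and 14 pathway genes were called, and with the replicate block and the correction 872 genes, 2 members and 6 pathway genes, where BRAF (0.088), NF1 (0.070) and DUSP4 (-0.12) turned sign.

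Starts with a peak numbered 3 with common peaks and 2 with total mH2A1 peaks, as did genes with a peak within, 3 and 2. Wider peaks, a wider window, any transcript start or a larger overlap gave 5 or 6 starts. Among the members, depth limited BRAF most, with 114 counts in KD replicate 2.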
